A study of Caenorhabditis elegans with 6 samples.

Results

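The arms of chromosome V carried 561 of the 8836 UNC-55::GFP binding regions of the combined list, 360 in the left arm and 201 in the right arm. A region belonged to an arm when its midpoint lay below 5900000 or above 16550000 on chromosome V of the WormBase WS220 genome, the positions taken here as the limits of the high-recombination arms. The choice used position only, so the number, width, spacing and score of the regions were free to vary. The left arm spans 5.90 Mb and the right arm 4.33 Mb, counted to the last base of the outermost region in any list. Together the arms make up 49.0% of chromosome V and held 36.7% of its combined regions. They make up 10.2% of the sequence spanned by regions on the 6 chromosomes and held 6.35% of all combined regions.

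UNC-55 is a worm nuclear receptor of the COUP-TF type, and nuclear receptors are transcription factors that bind DNA through a zinc finger domain. In C. elegans it is known for its part in giving GABA motor neurons of the ventral cord their identity and wiring. Each C. elegans autosome has a central domain with little recombination and 2 arms where recombination is frequent, and the arms hold more repeats and fewer conserved genes than the centre. Chromosome V is known for its large families of chemoreceptor genes, many of them in the arms, and its right arm also carries the tandem array of 5S ribosomal RNA genes.

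Binding was mapped by ChIP-seq with antibodies to GFP in hermaphrodites of strain NC1639 at the L2 stage, with 3 ChIP samples and 3 input samples of unprecipitated chromatin. All samples share 1 genotype: the integrated transgene wdIs49 on chromosome III, in which pttr39 drives UNC-55a fused to GFP, with dpy-20+ as a marker. By the labels the line was not outcrossed and also shows GFP outside the ventral cord GABA neurons, so the regions come from whole larvae with some expression in cells that are not named. Nothing in the labels ties the replicates to separate cultures, so the spread between them, and the p-values built on it, may be technical. Each ChIP replicate had its own list of regions, of 6805, 4909 and 2803 regions for replicates 1, 2 and 3, and 1 further list combined them. No list of input regions was among those used here, the lists give no read counts, and the depth behind each is unknown.

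Both arms were thinly covered compared with the centre of the same chromosome. The left arm held 61.0 combined regions per Mb and the right arm 46.5, against 90.9 in the centre and 92.3 on the other chromosomes. In the left arm the density was 46.6, 31.7 and 18.8 regions per Mb in replicates 1, 2 and 3. In the right arm it was 34.9, 23.3 and 15.3 regions per Mb. In the centre it was 72.7, 54.2 and 33.3 regions per Mb. Within every list the order was thus the same, with the centre above the left arm and the left arm above the right, although the replicate lists differ so much in length that the ranges of arm and centre overlap between lists.

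Taken within each list, left arm density was 0.60 ± 0.04 times that of the centre and right arm density 0.46 ± 0.02 times (SD, n = 3 replicates). The left arm was lower than the centre in 3 of 3 replicates, with a mean difference of -21.0 regions per Mb (exact two-sided sign-flip permutation test, p = 0.25). The right arm was lower in 3 of 3 replicates, with a mean difference of -28.9 regions per Mb (exact sign-flip permutation test, p = 0.25). Left arm density was 1.31 ± 0.07 times that of the right arm (SD, n = 3; exact permutation p = 0.25). With 3 replicates 0.25 is the smallest p this test allows, so no comparison of this kind can pass 0.05. Over all 27 such tests made here the smallest Benjamini-Hochberg adjusted p was 0.482, and in 14 of them all 3 replicates went the same way (exact permutation tests). Regions covered 3.18% of the left arm, 2.61% of the right arm and 5.52% of the centre in the combined list.

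**Figure D1:**
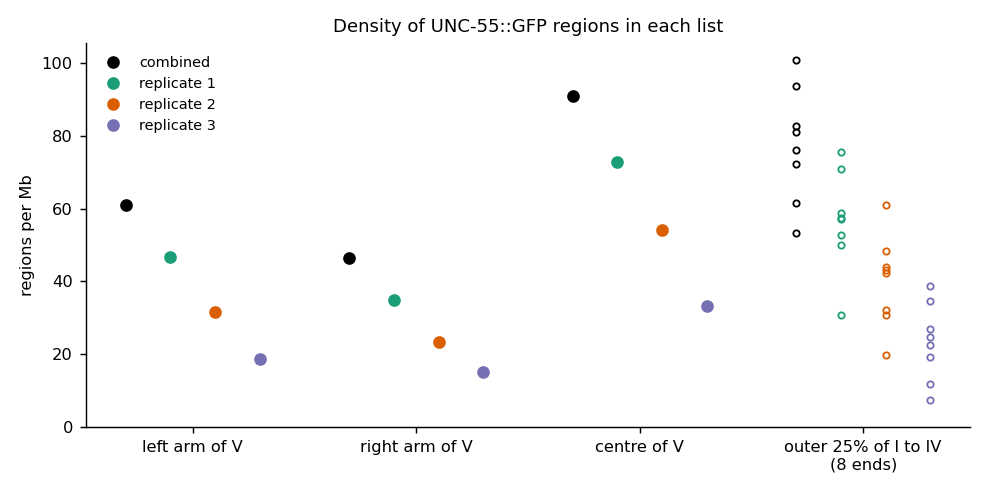
UNC-55::GFP regions per Mb (vertical axis) in the left arm, right arm and centre of chromosome V and in the outer 25% of chromosomes I to IV at each end, 1 point per list or, for I to IV, 1 open point per end and list. In each list the right arm of V lies lowest and the centre highest of the 3 parts of V, from 46.5 to 90.9 regions per Mb in the combined list.

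The ends of the other autosomes gave a scale for these densities. For this comparison the outer 25% of the span was taken at each end of chromosomes I, II, III and IV. Those 8 ends ranged from 53.4 to 101 combined regions per Mb, with a median of 78.5. Both arms of V together held 54.9 per Mb against 77.0 in these ends, and 0.74 ± 0.03 times their density within the replicate lists (SD, n = 3; exact sign-flip permutation p = 0.25). When V was cut in the same way, its right end was the sparsest of 10 autosome ends in the combined list and its left end the third sparsest, and the right end of IV lay between them. In the replicates the right end of IV was the sparsest, at 30.7, 19.9 and 7.56 regions per Mb, and the right end of V held place 2, 2 and 3 from the sparsest up. Set against the centre of its own chromosome, the right end of V was the lowest of the 10 in all 4 lists, at 0.47 in the combined list and 0.44, 0.40 and 0.44 in replicates 1, 2 and 3. The combined list has no region over 1021 kb in the centre of chromosome IV, which lowers the centre density that the ends of IV are set against.

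Regions were far from even along either arm. Counted in steps of 1 Mb from the left tip, the left arm held 52, 89, 34, 43 and 70 combined regions, and 72 in the last 0.9 Mb before the centre. In these steps the left arm was thus fullest between 1 and 2 Mb and next to the centre. In windows of 0.5 Mb it was thinnest between 2 and 3.5 Mb, with 36, 32 and 30 combined regions per Mb, against 56 from 3.5 to 4 Mb. In replicate 1 the steps of 1 Mb and the last 0.9 Mb held 35, 73, 25, 37, 49 and 56 regions. In replicate 2 they held 26, 44, 15, 27, 34 and 41 regions. In replicate 3 they held 16, 21, 8, 16, 24 and 26 regions. The third Mb was the emptiest step of the left arm in every list, while the second Mb held the highest count in the combined list and replicates 1 and 2 but not in replicate 3.

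The right arm was densest at its tip. From the tip inward it held 78, 53, 36 and 20 combined regions per Mb step, and 14 in the short stretch from 4 to 4.33 Mb next to the centre. Per Mb, that last stretch held 42.9 combined regions, so density rose again there. In replicates 1, 2 and 3 it held 39.8, 21.4 and 12.3 regions per Mb, against 13, 9 and 5 in the step before it. The outermost Mb held 38.8% of the combined regions of the arm in 23.1% of its length. In replicates 1, 2 and 3 it held 73 of 151, 47 of 101 and 32 of 66 right arm regions, or 48.3%, 46.5% and 48.5%. Density there was 3.05 ± 0.13 times that of the rest of the arm (SD, n = 3; higher in 3 of 3 replicates, exact sign-flip permutation p = 0.25). Without the outermost Mb the right arm held 37.0 combined regions per Mb, and 23.4, 16.2 and 10.2 in replicates 1, 2 and 3.

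The left tip did not share this pattern. Its outermost Mb held 0.78 ± 0.06 times the density of the rest of the left arm (SD, n = 3; lower in 3 of 3 replicates, exact sign-flip permutation p = 0.25). Compared with the outermost Mb of the other 8 autosome ends, which held 62 to 116 combined regions, the left tip with 52 was below all of them. It was also the sparsest of the 10 tips in replicates 1 and 2, but in replicate 3, with 16 regions, it held more than both tips of IV. The right tip with 78 was near their median of 79. In replicates 1, 2 and 3 the right tip held place 2, 3 and 3 among the 10 tips from the fullest down.

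**Figure D2:**
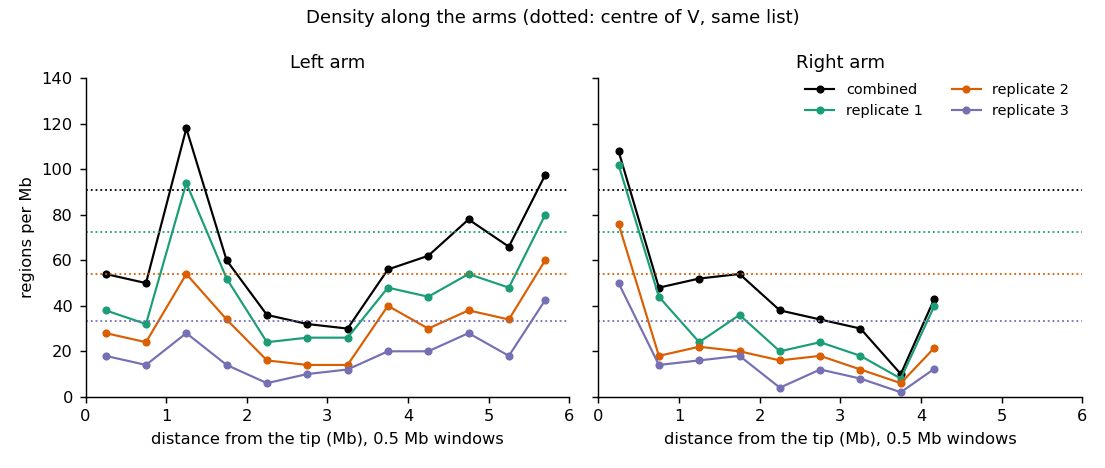
Regions per Mb (vertical axis) in 0.5 Mb windows against distance from the tip in Mb, for the left and right arm, with 1 line per list and a dotted line for the centre of V in the same list. The outermost window of the right arm, with 54 combined regions, lies above the centre line in every list, and most other windows of that arm lie far below it.

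Within the outermost Mb of the right arm, regions crowded into the last 0.5 Mb. That window held 54 combined regions and 51, 38 and 25 regions of replicates 1, 2 and 3. The next 0.5 Mb held 24 combined regions and 22, 9 and 7. At the other extreme, the window from 3.5 to 4 Mb inward from the right tip held 5 combined regions and 4, 3 and 1.

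Long stretches without any region broke up both arms. The left arm had 7 empty stretches of at least 100 kb between neighbouring combined regions, 1197 kb in all or 20.3% of its length. The right arm also had 7, of 1369 kb in all or 31.6% of its length. In the centre of V, 8 such stretches made up 8.60% of the length, and on the other chromosomes 22 made up 4.69%. Per 10 Mb there were 11.9 in the left arm, 16.2 in the right arm, 7.51 in the centre and 2.78 elsewhere. In replicate 1 the rates in the same order were 18.6, 23.1, 9.39 and 5.18, and in replicate 2 they were 18.6, 27.7, 15.0 and 9.60. In replicate 3 they were 32.2, 25.4, 17.8 and 20.8. Both arms thus stayed above the centre and above the other chromosomes taken as a whole in each list. The order of the 2 arms turned in replicate 3, as did that of the centre and the other chromosomes. Cut as the outer 25%, the ends of I to IV held 0 to 6 such stretches each in the combined list (median 1). The left end of II held 6 in 3.82 Mb and the right end of IV 6 in 4.37 Mb. The left and right ends of V held 7 and 10 in 5.22 Mb each. In replicate 3 the ends of I to IV held 3 to 18 (median 10), with 18 at the left end of IV. The left and right ends of V there held 18 and 16. Frequent long gaps were thus not particular to the arms of V. The arms also had fewer regions per Mb than the other parts, and the part of density in these counts was not tested.

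The longest empty stretch of the arms lay in the right arm and was present in each list. It ran 507 kb in the combined list, from 17007406 to 17514447. In replicates 1 and 2 it was 507 kb, with both borders within 72 bp of the combined ones, and in replicate 3, which lacked the regions on both sides, it was 573 kb. The region on its inner side, from 17005728 to 17007405, was 1678 bp wide and ranked 2600, and the region on its tip side, from 17514448 to 17514787, was 340 bp wide and ranked 2641. Both were found in replicates 1 and 2. In comparison, the longest stretch within the outer 25% of I to IV was 171 kb in the combined list and 333, 339 and 794 kb in replicates 1, 2 and 3, so that in replicate 3 it exceeded the one in the right arm of V. The longest in the centre of V was 139 kb in the combined list and 178, 198 and 316 kb in the replicates.

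In the left arm the longest empty stretch was 318 kb, from 2281998 to 2600432. The stretch at this place was 318, 322 and 321 kb long in replicates 1, 2 and 3. In replicates 2 and 3 another stretch of the left arm was longer, 500.2 kb from 2694816 to 3195060 in replicate 2 and 394 kb from 2694755 to 3088351 in replicate 3. The inner border of the 318 kb stretch was a strong region of 519 bp, from 2600433 to 2600951. This region ranked 334 in the combined list and 371, 235 and 324 in replicates 1, 2 and 3. The tip side border of the 318 kb stretch, from 2281452 to 2281997, ranked 4144 and was found in replicate 1 only. Further empty stretches of the left arm, of 196 and 169 kb, ran from 2892328 to 3088351 and from 3838442 to 4007207. In the right arm the next in length were 209 kb, from 18115481 to 18324302, and 172 kb, from 19720511 to 19892915.

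The regions that border these stretches were of very different strength. The one at 3088352 to 3088760 ranked 4669 and was found in replicates 1 and 3, and the one at 3838085 to 3838441 ranked 4782 and was found in replicates 1 and 2. The border at 2892016 to 2892327 ranked 6616 and was found in replicate 1 only. At 4007208 to 4007213 the border was 6 bp wide, ranked 8504 and was found in no replicate, and at 18324303 to 18324329 it was 27 bp wide, ranked 8218 and was also found in none. By contrast, the border at 18114982 to 18115480 ranked 1261 and was found in all 3 replicates. The last pair, at 19720014 to 19720510 and 19892916 to 19893576, ranked 3719 and 3548 and were each found in 2 replicates.

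Most of these stretches were empty in all 4 lists at once. Taking every region of every list together, the left arm still had 7 empty stretches of at least 100 kb, 1175 kb in all or 19.9% of its length. The right arm had 6, of 1259 kb or 29.1% of its length. Replicate regions inside the combined stretches were few: replicate 1 had 1 in each of 2 left arm stretches and 2 in 1 right arm stretch, and replicates 2 and 3 had 0. The combined list overlapped 264 of 275 left arm and 146 of 151 right arm regions of replicate 1. It overlapped all arm regions of replicate 2 (187 and 101) and of replicate 3 (111 and 66). Stretches empty in the combined list were therefore nearly bound to be empty in the replicates, which gives no separate support. The shorter replicate lists had more long gaps, with 11, 11 and 19 in the left arm and 10, 12 and 11 in the right arm. The lists carry no mappability or read depth, so an empty stretch may be unbound or unmeasured, and which of these holds was not tested.

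**Figure D3:**
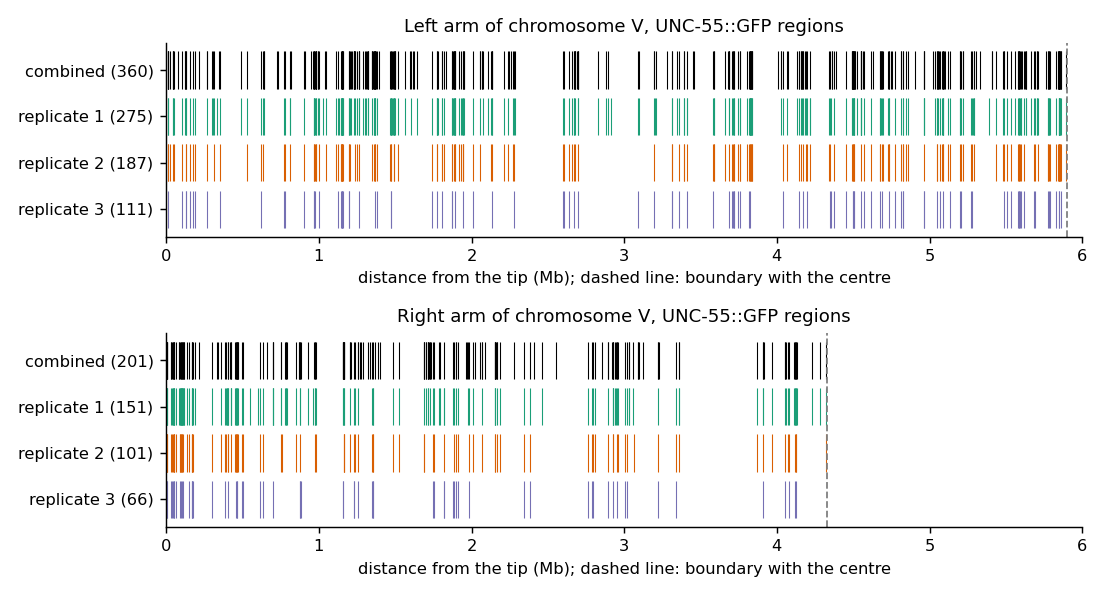
Position of every region in the left and right arm (1 tick each) by distance from the tip in Mb (horizontal axis), with 1 row per list and the number of regions in brackets. Blank bands line up between lists, among them the 507 kb stretch of the right arm, and ticks crowd at the tip of the right arm.

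The empty stretches divided each arm into 8 groups of regions. The larger groups of the left arm were 133 regions over 1794 kb, from 487677 to 2281997, and 123 regions over 1552 kb, from 4339476 to 5891626. A compact group of 13 regions over 98.3 kb, from 2600433 to 2698724, stood between empty stretches of 318 and 128 kb. Between its first and last region it reached 132 regions per Mb. That value leaves out the empty stretches beside the group, so it cannot be set against the density of the whole centre of V. In the right arm the last group before the tip was the fullest, with 55 of the 201 regions of the arm over 501 kb, from 20375694 to 20876517. Of these 55 regions, 26 (47.3%) were found in all 3 replicates, against 28.9% of the right arm and 29.5% of all combined regions. In this group lay 6 of the 14 right arm regions in the best-scored 10% of the list. The group next to it, from 19892916 to 20265545, held 23 regions, of which 3 (13.0%) were found in all 3 replicates.

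Inside the groups, neighbours were often close. In the combined list 121 of 359 neighbouring pairs in the left arm (33.7%) and 61 of 200 in the right arm (30.5%) were at most 2 kb apart, against 32.5% of all neighbouring pairs of the list and 37.7% in the centre of V. In replicates 1, 2 and 3 the left arm share was 27.4%, 18.8% and 10.0%, where the whole lists had 25.6%, 19% and 11.7%. The right arm share was 24%, 17% and 10.8%. Both arms were lower than the centre in 3 of 3 replicates, with mean differences of -4.62 and -6.09 percentage points (exact sign-flip permutation p = 0.25 for each). The arms were close to the whole list in this measure, although their median spacing was wide. The median gap was 5.32 kb in the left arm, 5.99 kb in the right arm and 3.65 kb in the centre, and in the replicates 16.5 ± 9.4, 15.4 ± 5.7 and 9.40 ± 4.45 kb (SD, n = 3).

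Runs of neighbours at most 2 kb apart reached 8 regions in either arm. The left arm had 27 runs of 3 or more, with 110 regions or 30.6% of its regions, and the right arm had 12, with 49 or 24.4%. The centre had 87, with 342 regions or 35.3%, and its largest run held 9. The longest left arm run spanned 13.9 kb, from 4498515 to 4512456, and 3 of its 8 regions were found in all 3 replicates. The right arm run of 8, from 19709243 to 19720510, had none found in all 3 and a best rank of 2830. The run at the right tip, from 20868532 to 20876517, had 6 regions, 3 of them found in all 3 replicates.

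Single regions had similar median widths in the arms and the centre. The median width in the combined list was 441 bp in the left arm, 432 bp in the right arm and 447 bp in the centre. In replicates 1, 2 and 3 it was 411, 422 and 403 bp in the left arm and 402, 440 and 400 bp in the right arm, against 432, 427 and 402 bp in the centre. Neither arm kept one direction over the replicates (differences of -8.33 and -6.33 bp on average, exact sign-flip permutation p = 0.5 and 0.75). Broad regions of at least 1500 bp numbered 9 in the left arm (2.50%) and 10 in the right arm (4.98%), against 3.42% of the whole list and 5.17% of the centre. Of these, 8 in the left arm and 7 in the right arm were found in all 3 replicates, against 41 of 50 in the centre.

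Very narrow regions were also present. Under 100 bp there were 18 regions in the left arm (5%) and 17 in the right arm (8.46%), against 3.84% of the combined list. The narrowest measured 4 bp in the left arm and 2 bp in the right arm. Of these narrow regions, 14 in each arm were found in no replicate, against 30 of 32 in the centre and 234 of 272 on the other chromosomes. The best rank among those of the arms was 6232. Replicate 1 had 3 and 5 such regions in the left and right arm, and replicates 2 and 3 had 0.

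In caller rank the left arm was short of top regions. Regions were ranked within a list by the p-value or q-value that the authors' caller gave, best first. Among the best-scored 10% of the combined list were 25 left arm regions (6.94%) and 14 right arm regions (6.97%), against 9.99% of the whole list by construction and 10.95% of the centre of V. In replicates 1, 2 and 3 the left arm share was 6.18%, 6.95% and 5.41%, against 10.7%, 11.4% and 10.7% in the centre. The left arm share was therefore lower in 3 of 3 replicates (mean difference -4.78 percentage points, exact sign-flip permutation p = 0.25). The right arm share was 9.27%, 10.9% and 12.1%, in which only replicate 3 lay above the centre (exact sign-flip permutation p = 0.75). The left arm lay below the right in 3 of 3 replicates (exact sign-flip permutation p = 0.25), while in the combined list both arms were alike. Cut as the outer 25%, the left end of V had 6.51% in the combined list and 5.15%, 6.41% and 5.49% in replicates 1, 2 and 3. The left end of IV had 10.8%, 10%, 5.97% and 5.77% in the same order, so it was as low in replicates 2 and 3. The other ends of I to IV had 8.24% or more in each list.

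**Figure D4:**
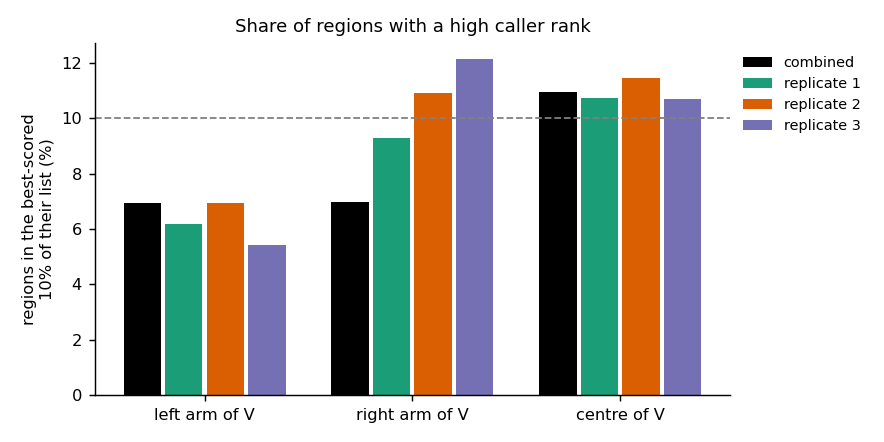
Share of regions, in percent, that lie in the best-scored 10% of their list (vertical axis) for the left arm, right arm and centre of V, with 1 bar per list and a dashed line at 10%. Left arm bars lie between 5.41% and 6.95%, below those of the centre in each list.

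Around the middle of the ranking the arms did not keep a direction. In the combined list 45.3% of left arm and 47.3% of right arm regions lay in the better-scored 50%, against 51.1% in the centre. In the replicates these shares were 49.4 ± 4.5%, 50.1 ± 7.5% and 51.5 ± 0.1% (SD, n = 3; exact sign-flip permutation p = 0.75 for either arm against the centre). The median rank percentile, where 0 is best, was 54.7 in the left arm, 57.2 in the right arm and 48.6 in the centre of the combined list.

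The strongest regions of the left arm were spread along it, and 1 of its 25 regions in the best-scored 10% of the combined list lay in the outermost 0.5 Mb, against 6 of 14 in the right arm. Of all combined regions, that window held 7.5% of those in the left arm and 26.9% of those in the right arm. The part of region density in this contrast was not tested. In the left arm the best-ranked region was also the outermost one. It lay from 8032 to 9860, was 1829 bp wide, ranked 49 in the combined list with a caller value of 4.26e-155, and ranked 46, 57 and 45 in replicates 1, 2 and 3. It was the sole left arm region of the outermost 0.5 Mb in the best-scored 10% of each list. The next, from 5049226 to 5050436, ranked 62, and 44, 54 and 52 in the replicates. Another, from 4506950 to 4509142, was 2193 bp wide and ranked 71, and 95, 56 and 85 in the replicates. It lies in the 8-region run described above.

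The other strong left arm regions were neighbours. The region from 1151060 to 1152110 ranked 73, and 47, 124 and 63 in the replicates, and the one from 1153516 to 1156540 ranked 174, and 216, 315 and 484. The latter was the widest region of the left arm at 3025 bp and overlapped 2 regions of replicate 1. Both belong to a run of 7 regions over 11.1 kb, from 1147981 to 1159105. The third widest region of the arm, from 3711921 to 3713996, measured 2076 bp and ranked 877, and 807, 928 and 988 in the replicates.

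In the right arm, 3 of the 5 best-ranked regions lay within the last 0.5 Mb, as did 26.9% of all its combined regions. The first, from 20771406 to 20775447, was the widest region of either arm at 4042 bp and ranked 47 with a caller value of 7.76e-158. Its best match ranked 120, 186 and 32 in replicates 1, 2 and 3 and was 1222, 1044 and 2476 bp wide. The combined region overlapped 2 regions each in replicates 1 and 2 and 1 in replicate 3, and so joined what replicates 1 and 2 listed apart. Also near the tip, the region from 20784303 to 20786712 ranked 143, and 239, 126 and 363 in the replicates. A further one, from 20823388 to 20825214, ranked 186, and 89, 160 and 92.

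The other strong right arm regions lay further in. The region from 20000185 to 20002700 was 2516 bp wide and ranked 50, and 60, 49 and 110 in the replicates. The one from 19519551 to 19523276 was 3726 bp wide and ranked 128, and 144, 339 and 187. Its best matches were 3019, 599 and 663 bp wide, and it overlapped 2 regions in each replicate. The outermost right arm region, from 20876145 to 20876517, was weak, with rank 7114, and was found in replicate 1 only.

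At the inner limits of the arms the rule cut between regions of very different rank. The last region inside the left arm, from 5891194 to 5891626, ranked 5172 and the first outside it, from 5917720 to 5918111, ranked 1948. On the right side the last region inside, from 16552976 to 16553275, ranked 4186. The first outside it, from 16542050 to 16542091, was 42 bp wide, ranked 8709 and was found in no replicate.

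Recurrence in the replicates was near that of the whole list. An overlap of at least 1 bp with a region in all 3 replicates was found for 106 left arm regions (29.4%, exact 95% interval 24.8 to 34.4%) and 58 right arm regions (28.9%, exact 95% interval 22.7 to 35.6%). The background over all combined regions was 29.5%, and the centre of V had 33.3% (exact 95% interval 30.3 to 36.3%). No replicate held 94 left arm regions (26.1%) and 58 right arm regions (28.9%), against 24.4% of the whole list and 21.7% of the centre. These intervals cover counting error only. The combined list was made from the same samples, so its overlap with the replicates is partly set by that.

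Replicate by replicate, the arms were overlapped less than the centre. In the left arm 72.5%, 50.8% and 30.6% of combined regions were overlapped by replicates 1, 2 and 3. In the right arm the shares were 69.2%, 48.8% and 31.3%, and in the centre 75.6%, 56.8% and 34.8%. The whole list had 73.6%, 53.4% and 30.5%. Either arm was lower than the centre in 3 of 3 replicates (exact sign-flip permutation p = 0.25 for each), and both lay close to the whole list.

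**Figure D5:**
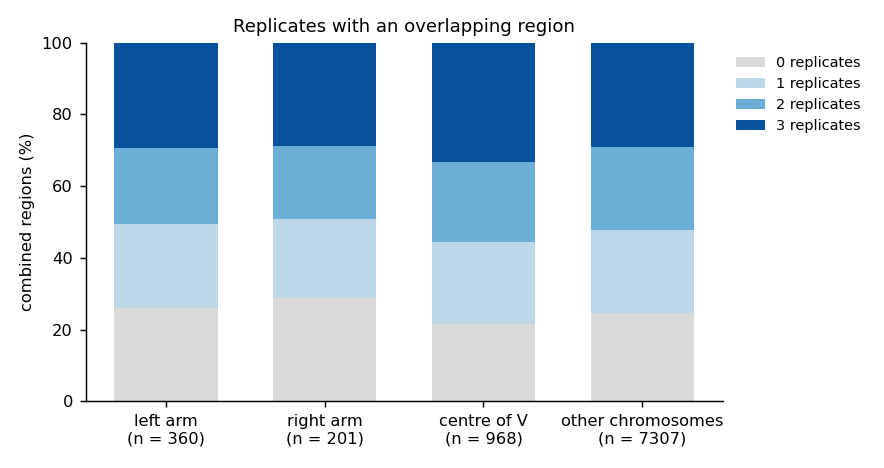
Combined regions in percent (vertical axis) by the number of replicates, 0 to 3, with a region that overlaps them by at least 1 bp, for the left arm, right arm, centre of V and other chromosomes. The share found in all 3 is 29.4% in the left arm and 28.9% in the right arm against 33.3% in the centre.

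The replicates that shared a region followed the length of their lists. Of the 76 left arm regions found in 2 replicates, 73 were in replicates 1 and 2, and of the 41 in the right arm 37 were. Of regions found once, 79 of 84 in the left arm and 40 of 44 in the right arm were in replicate 1. Among the replicates themselves, 65.5% of the 275 left arm regions of replicate 1 had a match in replicate 2 and 40.0% had one in replicate 3, where the whole list had 68.9% and 40.4%. For the 151 right arm regions of replicate 1 the shares were 64.2% and 43.0%. Of the replicate 2 regions, 182 of 187 in the left arm and 97 of 101 in the right arm matched replicate 1 (96% of the whole list), and 106 and 61 matched replicate 3 (54.9% of the whole list). In the other direction, 110 of 111 left arm and 65 of 66 right arm regions of replicate 3 matched replicate 1 (99.3% of the whole list). In replicate 2, 106 of 111 and 60 of 66 of them had a match (96.8% of the whole list).

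Regions that recurred were wider and better scored, in the arms as in the rest of the list. In the left arm the median width was 244, 371, 491 and 649 bp for regions found in 0, 1, 2 and 3 replicates, and in the right arm 221, 380, 522 and 646 bp. The centre had 232, 390, 532 and 661 bp and the other chromosomes 268, 374, 468 and 586 bp, so the order was the same there. All 39 arm regions in the best-scored 10% of the combined list were found in all 3 replicates, as were 106 of 106 in the centre and 863 of 883 in the whole list. Of the 152 arm regions found in no replicate, 0 lay in the better-scored 50%, against 0 of 210 in the centre and 5 of 2154 in the whole list. The best ranks among those of the arms were 5530 in the left arm and 5556 in the right arm. Width, score and recurrence moved together here, and the part of each was not tested.

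The edges of the matching replicate regions differed between replicates. A spread can reflect different matches as well as moved edges, and the 2 were not told apart. For example, the region from 19519551 to 19523276 overlapped 2 regions in each replicate, and its best matches began up to 2451 bp apart. Over the 106 left arm and 58 right arm regions found in all 3 replicates, the larger of the 2 edge spreads had a median of 187 and 158 bp, against 153 bp over 322 regions of the centre. None had both edges within 10 bp in the 3 replicates (smallest spread 14 bp in the left arm and 35 bp in the right arm). The same held for the centre, where the smallest spread was 11 bp.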

How the data were processed

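The authors deposited lists of binding regions in GFF3 format, 1 for each of the 3 ChIP replicates and 1 combined list for the series. The caller was PeakSeq and the genome WormBase WS220, per the file headers and columns. The aligner, the version and thresholds of PeakSeq and the way replicates were combined were not stated in the sources used here. Column 6 of the deposited lists holds the caller's p-value or q-value, and the headers do not say which. It was used for ranking within a list only, with ties broken by the number in the region's name. The sample labels (UNC-55::GFP, L2) were followed where the title of the series, with a different protein and age, departs from them.

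The members, comparisons and measures were chosen with earlier results of these data known. Each region was placed by its midpoint. Density, width, gap, rank and overlap of at least 1 bp were computed per list. Parts were compared by the difference within each replicate list with exact two-sided sign-flip permutation tests over the 3 replicates. Regions were never resampled, as they are not replicates. Regions named are, per arm, the 5 best-ranked, the 3 widest, those bordering the 3 longest empty stretches, the outermost, and those next to the boundary, and groups and runs named were chosen after their values were seen. Shares of regions found in all 3 replicates have exact (Clopper-Pearson) 95% intervals, and other shares are given without one. The gene table used here belongs to the assembly WBcel235, so no gene or sequence is given, and sequence features were not analysed here.

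The overlap code recovered 300 of 300 planted overlaps on simulated data and had 0 differences from bedtools 2.31.1. The work ran in Python 3.11.15 with pandas 2.3.3, numpy 2.4.6, matplotlib 3.10.9 and SciPy 1.17.1. Alternatives were each replicate list, other boundaries, overlap rules, score and gap limits, and leaving out each replicate.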

Additional observations from a re-analysis of the deposited data

How the results depend on the processing

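Of 110 values under alternatives, 90 were labelled the same, 11 moved and 9 reversed. For the lengths and counts of empty stretches these labels followed no single size of change, so the values are given below. The lower density of both arms and their lower share of regions found in all 3 replicates, each against the centre of V, kept their direction under each alternative run. With 1 replicate left out, the mean density difference ranged from -24.3 to -18.5 regions per Mb in the left arm and from -34.3 to -24.5 in the right arm.

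Width did not keep its direction. The left arm minus centre difference of -6 bp became 1 bp in replicate 3 and 3 bp with arms as the outer 25% of V. In the right arm -15 bp became 13 bp in replicate 2 and 3.5 bp with the outer 25%, and the replicate mean ranged from -16 to 5.5 bp with 1 replicate left out. The share in the better-scored 50% also turned. It was 5.86 percentage points below the centre in the left arm of the combined list and 2.50 above it in replicate 3, and in the right arm 5.95 above in replicate 2. With 1 replicate left out the mean difference ranged from -4.30 to 0.11 points in the left arm and from -5.11 to 2.43 in the right arm. The cause was not tested.

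The longest empty stretch of the left arm was 500.2 kb in replicate 2 and 394 kb in replicate 3, and that of the right arm was 573 kb in replicate 3. Empty stretches of at least 100 kb numbered 7 in each arm of the combined list. In replicates 1, 2 and 3, whose lists are shorter, there were 11, 11 and 19 in the left arm and 10, 12 and 11 in the right arm. In the combined list, a limit of 50 kb gave 27 in the left and 22 in the right arm, and 200 kb gave 1 and 2, by construction. No paired analysis was possible because, for ChIP against input, no input list was analysed here. Parts of V were compared within each replicate list throughout. The lists hold no depth, so shares and densities carry no interval for enrichment.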
